A study of Mus musculus with 28 samples.

Results

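The 47 genes described here encode the proteins that license, start and carry out DNA replication, together with the cyclins E, E2F1 and the enzymes that supply deoxynucleotides. They were chosen by symbol and matched through their Ensembl IDs, and all 47 were found in both count tables and passed the low-count filter in both experiments, among 13998 genes tested in the first and 15429 in the second. Transcripts were counted in primary bone marrow-derived macrophages of mice aged 2 to 4 months, male and female, grown for 6 days in L929 cell-conditioned medium, a source of macrophage colony-stimulating factor, and then moved for 24 h to medium without it. The first experiment compared Irgm_IFNAR-KO cells, labelled as lacking Irgm1 and IFNAR, the type I interferon receptor, with Irgm1-KO cells and both with WT cells. The second compared Irgm1KO_fenofibrate, Irgm1KO_control, WT_fenofibrate and WT_control cells, where fenofibrate, an agonist of the nuclear receptor PPAR-alpha, was used at 50 µM. Each of the 7 groups held 4 libraries. The mutants were backcrossed to C57BL/6. Irgm1 encodes an interferon-inducible GTPase that acts in autophagy and mitochondrial quality control, and its loss is known to raise type I interferon signalling. The labels do not say whether libraries of a group came from separate animals, so the p-values speak only of the variation among the libraries at hand. In the second experiment each group held libraries with Xist above 50 CPM and libraries with under 2 CPM. Their numbers were 3 and 1 in both Irgm1KO groups, and 2 and 2 in both WT groups. The libraries under 2 CPM read 50.2 to 66.9 CPM for Ddx3y, a gene of the Y chromosome. Sex thus differed within each group of that experiment, and the male share differed between its genotypes. The libraries of a group hence did not all share 1 source in the second experiment, and in the first the variation may be technical. How long fenofibrate was present and what control cells received are not stated there, and no group lacked the interferon receptor alone.

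A cell prepares to copy its DNA in G1, when the origin recognition complex, Cdc6 and Cdt1 load the ring-shaped MCM helicase onto origins. At the G1/S boundary cyclin E with its kinase partner, and the E2F transcription factors that drive many of these genes, allow Cdc45 and the GINS complex to activate the helicase. DNA polymerases, the sliding clamp PCNA and enzymes of deoxynucleotide synthesis then sustain the forks. Marrow-derived macrophages divide in response to colony-stimulating factor, and the cells studied here had been moved to medium without its L929 source.

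Irgm1 itself read 798, 839, 628 and 776 counts per 1000000 of the scaled library size (CPM) in Irgm1-KO libraries 1 to 4, against 1290.4, 1189, 1339 and 1352 CPM in WT libraries. Its log2 fold change was -0.77 (SE 0.10, adjusted p = 8.3e-05, edgeR's quasi-likelihood test with Benjamini-Hochberg adjustment, as for every adjusted p below), and -0.65 (SE 0.05, adjusted p = 5.3e-08) for Irgm1KO_control against WT_control. Ifnar1, which encodes a chain of the type I interferon receptor, read 114, 109, 53.1 and 108 CPM in Irgm_IFNAR-KO libraries, against 139, 128, 137 and 141 CPM in WT libraries, and was not called (log2 -0.50, SE 0.19, adjusted p = 0.12). Replicate 3 lay far below the other Irgm_IFNAR-KO libraries, which were themselves below the WT range. Transcripts of both genes were thus still counted in the knockouts, and the deleted parts are not given in the labels. Libraries of the first experiment held 48652844 to 70455339 counts each, those of the second 82362311 to 120844616. All 9 genes of a macrophage marker list were tested in both experiments. Their summed level was 9791 to 15176 CPM in Irgm1-KO libraries, 29015 to 40450 CPM in Irgm_IFNAR-KO libraries and 21466 to 42001 CPM in WT libraries. The sum is unweighted, and in WT replicate 3 Lyz2, 1 gene of the list, alone held 2.30% of all counts. A difference in it need not hold for the other genes of the list. A neutrophil and promyelocyte list, with 7 of its 9 genes in the table, summed to 16.0 to 26.0 CPM in Irgm_IFNAR-KO, 5.67 to 9.76 CPM in Irgm1-KO and 16.2 to 40.7 CPM in WT libraries. Progenitor genes, 4 of 6 in the table, summed to 2.17 to 2.37 CPM in Irgm1-KO, 1.92 to 2.13 CPM in Irgm_IFNAR-KO and 1.67 to 4.06 CPM in WT libraries. Dendritic cell genes, 4 of 5 in the table, summed to 21.6 to 26.0 CPM in Irgm1-KO, 57.7 to 65.7 CPM in Irgm_IFNAR-KO and 46.0 to 54.3 CPM in WT libraries. Lists of T and NK cells (1 of 6 genes in the table), B cells (1 of 4), mast cells and basophils (3 of 4) and stromal cells (3 of 5) summed to under 2 CPM in each library. Genes missing from the table add nothing to these sums, and no gene of an erythroid list was in it. In the second experiment the macrophage sum was 15143 to 18542 CPM in Irgm1KO_fenofibrate, 10810 to 13019 CPM in Irgm1KO_control, 14023 to 22644 CPM in WT_fenofibrate and 22350 to 31002 CPM in WT_control libraries. Dendritic cell genes summed to 55.8 to 71.7, 54.8 to 58.9, 8.52 to 24.7 and 27.3 to 45.7 CPM in these groups in the same order, neutrophil and promyelocyte genes to 0.861 to 2.48, 0.345 to 0.592, 2.18 to 2.97 and 2.27 to 6.23 CPM, and progenitor genes to 5.22 to 9.40, 3.80 to 5.64, 3.77 to 19.2 and 4.50 to 23.8 CPM. The part of these sums in the results was not tested. One direction of variation within the groups of the first experiment held 53.8% of the within-group variance, and WT replicate 2, with the lowest Xist level of that experiment (50.8 CPM), lay farthest out on it. Strand use in counting is not given in the sources used here, and 12 members overlap an exon of a coding gene on the opposite strand, which makes their values uncertain: Ccne2, Cdc45, Chaf1a, Fen1, Gins2, Lig1, Mcm7, Orc6, Rfc2, Rfc4, Rfc5 and Tk1. Orc1 values are uncertain too, as 376 of its bases overlap Gm12743, an opposite-strand gene not annotated as coding. Gm12743 had 488 counts against 900 for Orc1 in the first experiment, and 1538 against 5807 in the second. In bulk RNA, fewer cells in S phase and less of a transcript in each such cell cannot be told apart.

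Measured per kilobase of exon, Pcna, the sliding clamp that holds polymerases on DNA, was the most abundant member, with 77.5 ± 15.5 CPM per kb in WT and 64.5 ± 2.6 in WT_control cells (SD, n = 4 each). Orc1, the largest subunit of the origin recognition complex, was the least abundant, with 0.541 ± 0.113 CPM per kb in WT and 0.702 ± 0.122 in WT_control cells. Pcna ranged over the 7 groups between 64.5 CPM per kb (WT_control and Irgm_IFNAR-KO) and 144 (Irgm1KO_fenofibrate), and Orc1 between 0.200 (Irgm_IFNAR-KO) and 1.43 (Irgm1KO_fenofibrate).

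**Figure D1:**
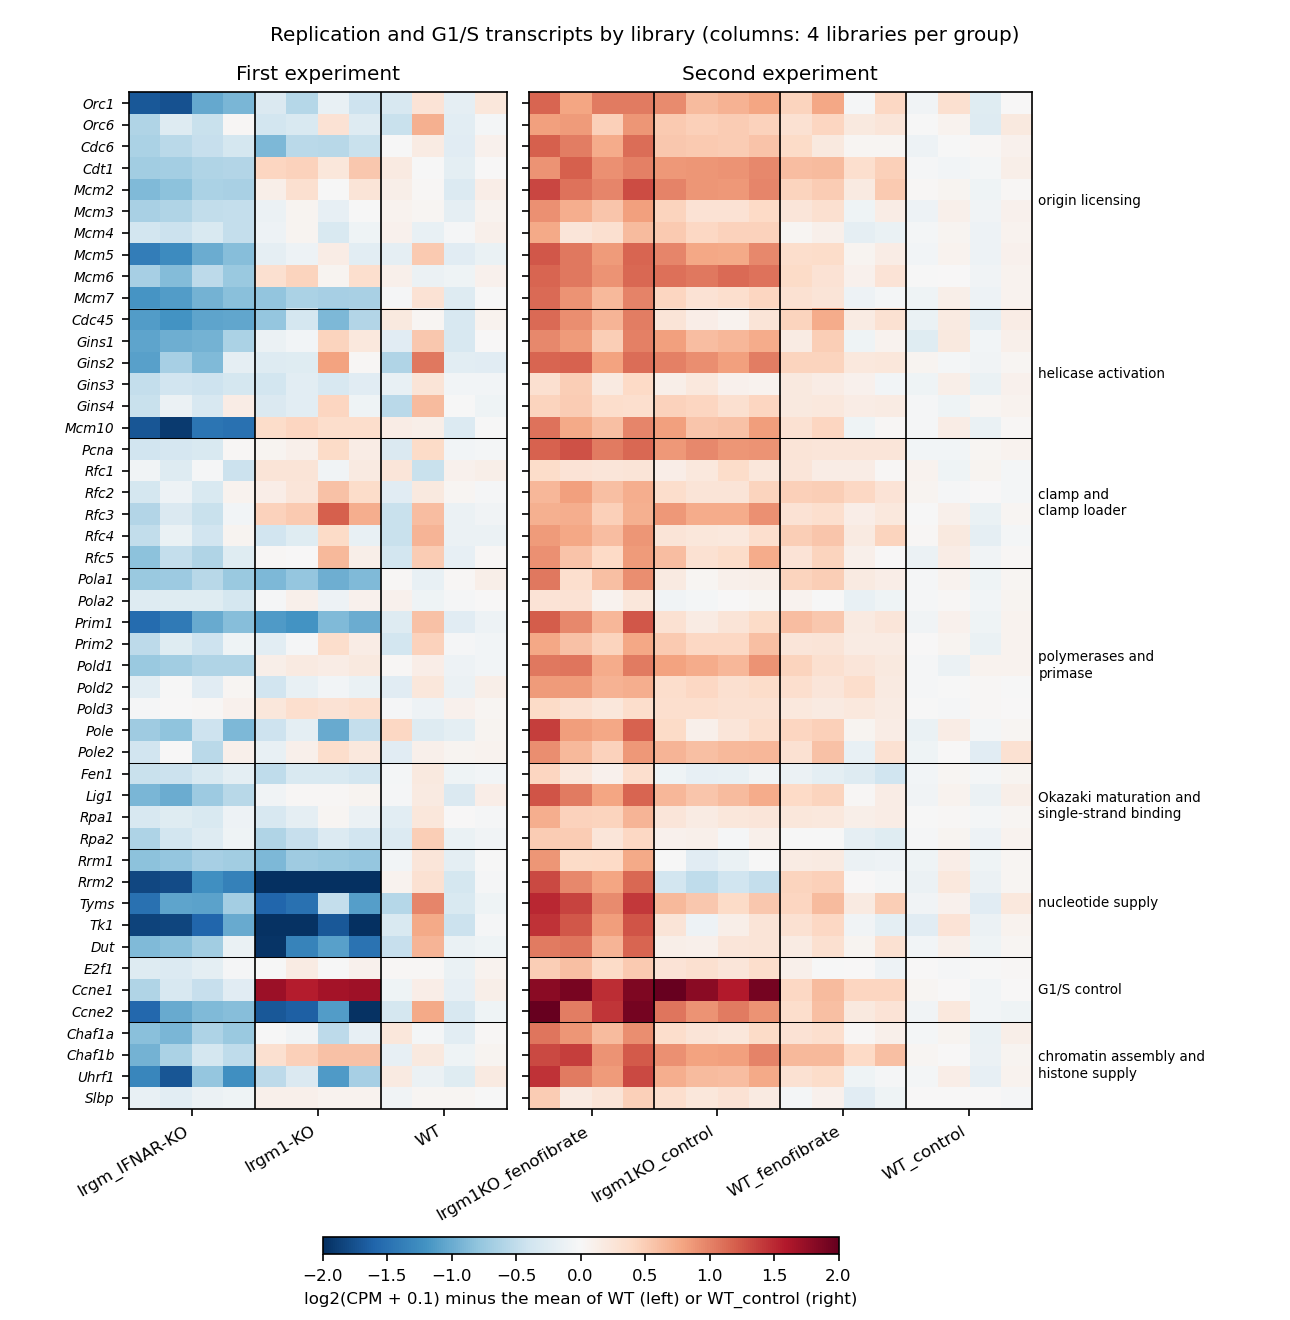
Level of each of the 47 members in each library, as log2(CPM + 0.1) minus the mean of the WT libraries (left panel) or of the WT_control libraries (right panel), with rows ordered by role and 4 libraries per group. Irgm_IFNAR-KO columns are mostly blue, Irgm1-KO columns are mixed, with deep blue in the nucleotide supply rows and deep red for Ccne1, and the Irgm1KO columns of the second experiment are mostly red.

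In the first experiment, the pattern was mixed: 7 of 47 members were higher and 16 lower in Irgm1-KO than in WT cells, beside 19.8% of all tested genes higher and 20.7% lower. The median log2 fold change of the members was -0.11, against -0.02 for all tested genes, and 21 members had a fold above 0. Without WT replicate 2 the median was 0.02, and without WT replicate 3 the number higher was 4. The members that fell furthest were those of deoxynucleotide supply, all 5 of which were called lower (median -1.53). The member that rose furthest was Ccne1, the cyclin E1 that activates the S-phase kinase.

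Cyclin E1 and cyclin E2, which share that kinase partner, moved in opposite directions. Ccne1 read 25.5, 23.2, 24.8 and 25.2 CPM in Irgm1-KO libraries, against 7.27, 8.52, 6.86 and 8.37 CPM in WT libraries (log2 1.67, SE 0.10, adjusted p = 1.2e-07). Ccne2 read 2.31, 2.41, 3.47 and 1.88 CPM in Irgm1-KO libraries, against 6.00, 13.1, 6.15 and 7.21 CPM in WT libraries (log2 -1.68, SE 0.28, adjusted p = 0.00046). For neither gene did the groups overlap, every Irgm1-KO library being above the WT range for Ccne1 and below it for Ccne2. WT replicate 2 was the highest library for both, and without it the Ccne2 value was still lower in Irgm1-KO cells (lowest to highest log2 value over 12 fits that each left out 1 library, -1.88 to -1.36). E2f1, the transcription factor that drives many replication genes, was not called (log2 0.06, SE 0.08, adjusted p = 0.59).

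Among the nucleotide supply genes, Rrm2, the S-phase small subunit of ribonucleotide reductase, read 3.67, 4.88, 3.44 and 3.87 CPM in Irgm1-KO libraries, against 25.6, 30.4, 19.2 and 24.0 CPM in WT libraries (log2 -2.64, SE 0.19, adjusted p = 4.5e-07). Tk1, the thymidine salvage kinase, read 2.70, 2.71, 3.32 and 2.61 CPM in Irgm1-KO libraries, against 8.85, 18.5, 8.05 and 10.8 CPM in WT libraries (log2 -2.02, SE 0.27, adjusted p = 8.8e-05). Neither gene's groups overlapped. Dut, the dUTPase that keeps uracil out of DNA, had a log2 value of -1.53 (SE 0.28, adjusted p = 0.00081). Tyms, thymidylate synthase, had -1.24 (SE 0.35, adjusted p = 0.014), which was -0.80 without WT replicate 2, where Tyms read 13.5 CPM against 4.56 to 6.45 CPM in the other WT libraries. Rrm1, the large subunit of ribonucleotide reductase, fell by 0.79 in log2 (SE 0.09, adjusted p = 2.7e-05).

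Of the 4 genes of polymerase alpha and primase, which start each new strand with a short primer, Pola1 and Prim1 fell in Irgm1-KO cells, and Pola2 (log2 0.02, SE 0.07, adjusted p = 0.88) and Prim2 (0.06, SE 0.18, adjusted p = 0.83) were not called. Pola1, the catalytic subunit of polymerase alpha, read 11.9, 12.9, 11.2 and 12.01 CPM in Irgm1-KO libraries, against 22.5, 19.9, 22.5 and 24.0 CPM in WT libraries (log2 -0.89, SE 0.08, adjusted p = 3.4e-06), with no overlap. Prim1, the small primase subunit, had a log2 value of -1.10 (SE 0.21, adjusted p = 0.0011). Pole, the leading-strand polymerase, fell by 0.52 (SE 0.19, adjusted p = 0.046), while Pold3, an accessory subunit of polymerase delta, rose by 0.30 (SE 0.06, adjusted p = 0.0026), both on the log2 scale. The other 5 polymerase and primase members were not called.

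Licensing factors split. Mcm7, a subunit of the MCM ring, read 15.4, 17.2, 16.8 and 17.01 CPM in Irgm1-KO libraries, against 26.3, 32.7, 22.4 and 26.7 CPM in WT libraries (log2 -0.70, SE 0.12, adjusted p = 0.0004). Cdc6, the loader of that ring, also fell (log2 -0.62, SE 0.12, adjusted p = 0.0014). Every Irgm1-KO library was below every WT library for Mcm7. Cdt1, the other loading factor, rose to 25.02, 25.5, 21.7 and 27.2 CPM in Irgm1-KO libraries, against 21.0, 18.6, 16.3 and 18.8 CPM in WT libraries (log2 0.41, SE 0.09, adjusted p = 0.0031). Mcm6 had 53.8, 58.8, 44.7 and 54.5 CPM in Irgm1-KO libraries, against 46.4, 39.5, 40.7 and 45.9 CPM in WT libraries (log2 0.30, SE 0.10, adjusted p = 0.036). The Cdt1 groups did not overlap, the Mcm6 groups did, and the Mcm6 call was lost in 6 of 12 fits that each left out 1 library (Irgm1-KO replicate 1, 2 or 4, Irgm_IFNAR-KO replicate 1, WT replicate 2 or 3), with an adjusted p of up to 0.11.

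At the later steps, Cdc45, which joins MCM and GINS into the active helicase, fell to 3.42, 4.63, 3.15 and 3.92 CPM in Irgm1-KO libraries, against 6.84, 6.08, 4.75 and 6.26 CPM in WT libraries (log2 -0.66, SE 0.14, adjusted p = 0.0022). Fen1, the flap nuclease that trims Okazaki fragments, fell to 31.8, 36.9, 36.6 and 35.02 CPM in Irgm1-KO libraries, against 44.0, 51.9, 42.6 and 43.9 CPM in WT libraries (log2 -0.38, SE 0.09, adjusted p = 0.0046). The groups overlapped for neither. Chaf1b, a subunit of the chromatin assembly factor that deposits histones behind the fork, rose to 10.3, 11.6, 12.4 and 12.4 CPM in Irgm1-KO libraries, against 7.35, 9.49, 7.74 and 8.601 CPM in WT libraries (log2 0.49, SE 0.13, adjusted p = 0.009). Rfc3, a subunit of the loader of the PCNA clamp, had 21.6, 22.6, 36.4 and 26.1 CPM in Irgm1-KO libraries, against 11.6, 24.2, 14.6 and 15.1 CPM in WT libraries (log2 0.71, SE 0.23, adjusted p = 0.026). For Chaf1b the groups were apart, whereas for Rfc3 WT replicate 2 lay inside the Irgm1-KO range, and the Rfc3 call was lost on leaving out Irgm1-KO replicate 3 or WT replicate 1, 3 or 4 (adjusted p of 0.054 to 0.071). Rpa2, a subunit of the single-strand binding protein, was called lower (log2 -0.45, SE 0.16, adjusted p = 0.042) but not in 7 of the 12 such fits: leaving out WT replicate 2 gave -0.27, and the others were WT replicate 4, Irgm1-KO replicates 1, 2 and 4 and Irgm_IFNAR-KO replicates 2 and 3.

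Irgm_IFNAR-KO cells, compared with the same WT libraries, showed a one-sided pattern. Of 47 members 29 were lower and 0 were higher by edgeR's quasi-likelihood test, beside 8.22% of all tested genes lower and 3.94% higher; 35 members had an unadjusted p below 0.05, and DESeq2's Wald test also called 0 higher. The median log2 fold change was -0.61, against 0.01 for all tested genes, and 46 members had a fold below 0. By role, 9 of 10 licensing genes, 4 of 6 helicase activation genes, 4 of 5 nucleotide supply genes, 5 of 9 polymerase and primase genes and 3 of 4 chromatin assembly genes were lower, and 0 of 6 clamp and clamp loader genes were called. The call of Tyms among them was lost in 10 of 12 fits that each left out 1 library, all but those without Irgm1-KO replicate 3 or WT replicate 1, and its log2 value was -0.76 without WT replicate 2, against -1.20 with all. Without WT replicate 2 the median was -0.45.

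**Figure D2:**
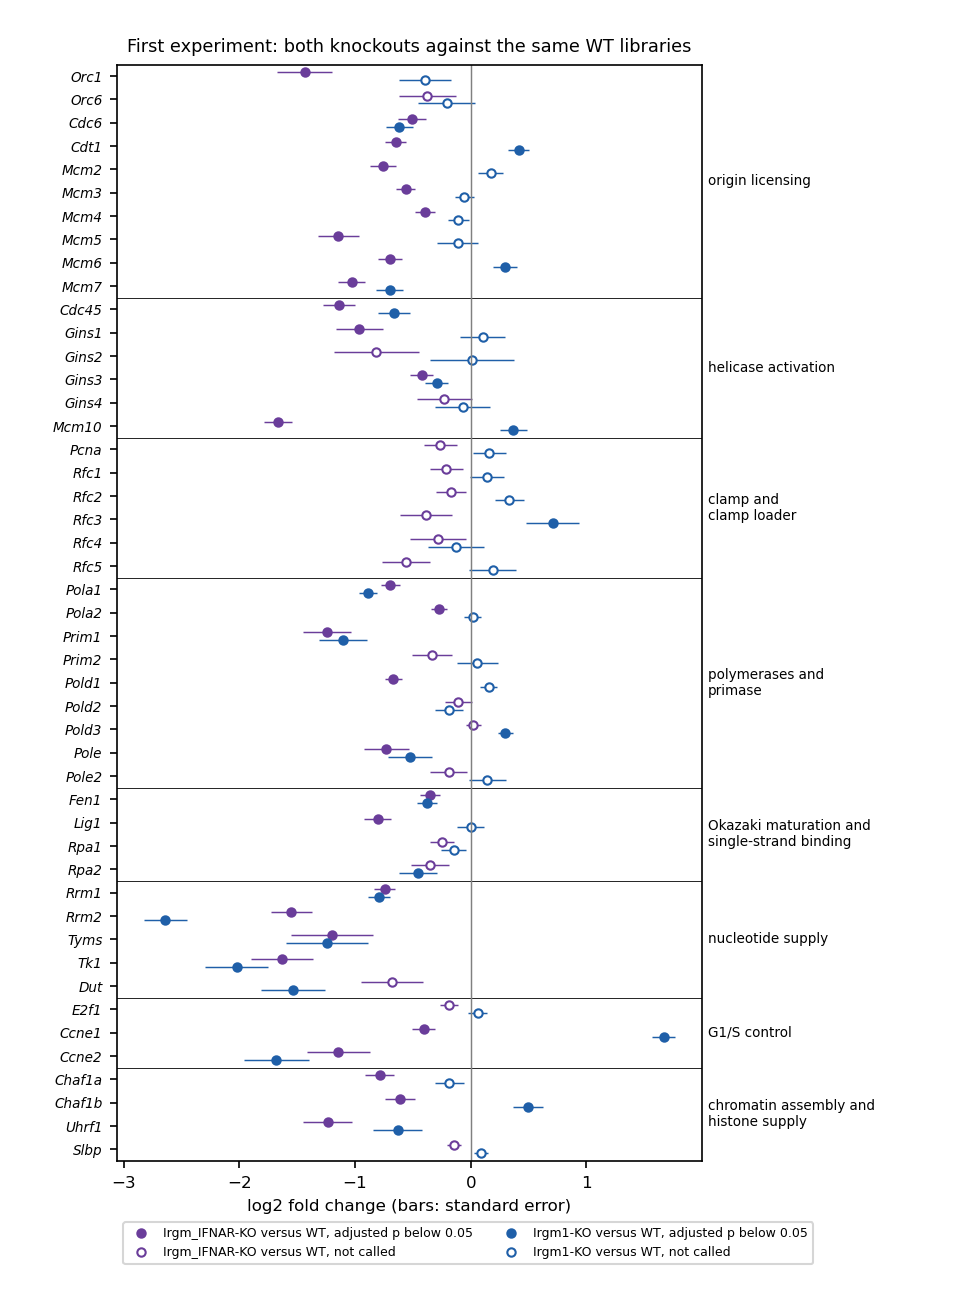
Log2 fold change of each member against the same 4 WT libraries for Irgm_IFNAR-KO and Irgm1-KO cells in the first experiment, with standard errors as bars and filled symbols for an adjusted p below 0.05. Ccne1, Mcm10, Cdt1, Chaf1b and Mcm6 carry filled symbols on opposite sides of 0, and the nucleotide supply genes lie left of 0 in both.

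Licensing genes were among those that fell. Orc1 had a log2 value of -1.44 (SE 0.24, adjusted p = 0.0015) and Mcm5, another ring subunit, of -1.14 (SE 0.18, adjusted p = 0.001). Mcm10, a factor that helps the helicase to start moving, read 3.500, 3.001, 4.14 and 4.10 CPM in Irgm_IFNAR-KO libraries, 15.1, 15.71, 14.8 and 14.9 CPM in Irgm1-KO libraries and 12.97, 12.7, 9.61 and 11.6 CPM in WT libraries. The Irgm_IFNAR-KO libraries were far below both other groups, and the Irgm1-KO libraries were all above the WT libraries. The fitted log2 values were -1.67 for Irgm_IFNAR-KO against WT (SE 0.12, adjusted p = 3.3e-06) and 0.37 for Irgm1-KO against WT (SE 0.12, adjusted p = 0.023), the second of which was lost on leaving out Irgm1-KO replicate 2 or WT replicate 3 or 4 (adjusted p of 0.054 to 0.069).

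Mcm10 was 1 of 5 members called in opposite directions in the knockouts against their shared WT libraries, with Ccne1, Cdt1, Chaf1b and Mcm6. Ccne1 read 5.03, 6.16, 5.61 and 6.61 CPM in Irgm_IFNAR-KO libraries, all under the WT range (log2 -0.41, SE 0.10, adjusted p = 0.019; 0.065 without WT replicate 4). Cdt1 read 11.4, 11.6, 12.2 and 12.4 CPM there (log2 -0.65, SE 0.09, adjusted p = 0.00052). Both genes were thus lowest in Irgm_IFNAR-KO cells and highest in Irgm1-KO cells, with no overlap of any groups. Chaf1b had 4.23, 5.29, 6.46 and 5.80 CPM in Irgm_IFNAR-KO libraries (log2 -0.61, SE 0.13, adjusted p = 0.0086), and Mcm6 had 27.2, 23.6, 29.8 and 25.6 CPM (log2 -0.70, SE 0.10, adjusted p = 0.00068), again below every WT library.

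Directly compared, Irgm_IFNAR-KO cells had 25 members lower and 2 higher than Irgm1-KO cells, beside 21.3% and 21.5% of all tested genes, with a median log2 fold change of -0.33 (all tested genes 0.02). The largest falls were in Ccne1 (-2.07, SE 0.10, adjusted p = 1.5e-08) and Mcm10 (-2.04, SE 0.12, adjusted p = 7.2e-08). Both members that rose supply nucleotides. Rrm2 read 6.85, 6.98, 10.4 and 9.58 CPM in Irgm_IFNAR-KO libraries, above the Irgm1-KO libraries and below the WT libraries (log2 1.09 against Irgm1-KO, SE 0.18, adjusted p = 0.0004, and -1.55 against WT, SE 0.18, adjusted p = 0.0001). Dut was the other (log2 0.85, SE 0.28, adjusted p = 0.026), a call lost on leaving out Irgm1-KO replicate 1 or 4 or Irgm_IFNAR-KO replicate 4 (adjusted p of 0.061 to 0.084). Ccne2, with 2.52, 3.79, 4.12 and 4.22 CPM in Irgm_IFNAR-KO libraries, overlapped the Irgm1-KO range (log2 0.54, SE 0.28, adjusted p = 0.15). Tk1 likewise had a log2 value of 0.39 (SE 0.27, adjusted p = 0.27).

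In the second experiment, most of the members were higher in Irgm1KO_control cells. In Irgm1KO_control against WT_control cells 35 of 47 were higher and 1, Rrm2, was lower, beside 27.3% of all tested genes higher and 26.1% lower. The median log2 fold change was 0.41, against 0.00 for all tested genes. All 10 licensing genes, all 6 clamp and clamp loader genes, all 3 G1/S control genes and all 4 chromatin assembly genes rose, whereas 1 of 5 nucleotide supply genes rose and 1 fell.

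Ccne1 again rose furthest, to 33.1, 28.7, 24.8 and 31.1 CPM in Irgm1KO_control libraries, against 8.39, 8.19, 7.89 and 8.22 CPM in WT_control libraries (log2 1.85, SE 0.10, adjusted p = 3.9e-10). Mcm6 rose to 164, 159.7, 168 and 164 CPM in Irgm1KO_control libraries, against 75.9, 76.8, 73.3 and 80.9 CPM in WT_control libraries (log2 1.09, SE 0.06, adjusted p = 1.3e-09). The lowest Irgm1KO_control library lay far above the highest WT_control library for both. Pcna rose to 281, 300.4, 287 and 287 CPM in Irgm1KO_control libraries, against 149.7, 149, 159 and 162 CPM in WT_control libraries (log2 0.90, SE 0.05, adjusted p = 6.6e-10). Gins2, a subunit of the GINS complex, rose to 17.1, 16.3, 15.1 and 17.3 CPM in Irgm1KO_control libraries, against 8.82, 8.27, 8.10 and 8.68 CPM in WT_control libraries (log2 0.95, SE 0.08, adjusted p = 1.0e-07). Each of these groups was tight and apart from the other.

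Pold1, the catalytic subunit of polymerase delta, had 32.5, 31.1, 29.7 and 34.7 CPM in Irgm1KO_control libraries, against 18.4, 17.2, 19.6 and 19.6 CPM in WT_control libraries (log2 0.78, SE 0.08, adjusted p = 3.4e-07). Lig1, the ligase that seals Okazaki fragments, had 66.2, 61.9, 65.2 and 70.2 CPM in Irgm1KO_control libraries, against 40.1, 43.9, 38.6 and 45.4 CPM in WT_control libraries (log2 0.65, SE 0.10, adjusted p = 4.2e-05). Chaf1b had 18.5, 17.2, 17.3 and 19.6 CPM in Irgm1KO_control libraries, against 10.0, 9.91, 9.08 and 10.2 CPM in WT_control libraries (log2 0.89, SE 0.09, adjusted p = 4.7e-07). All 3 were higher in every Irgm1KO_control library than in any WT_control library. Among the nucleotide supply genes Tyms rose, with 8.800, 8.09, 7.31 and 8.10 CPM in Irgm1KO_control libraries, against 5.29, 5.89, 4.71 and 6.48 CPM in WT_control libraries (log2 0.53, SE 0.12, adjusted p = 0.0017). Rrm2 fell, with 33.4, 30.2, 32.7 and 31.2 CPM in Irgm1KO_control libraries, against 39.7, 49.8, 39.8 and 44.3 CPM in WT_control libraries (log2 -0.45, SE 0.13, adjusted p = 0.0079). Fen1, Rrm1, Tk1, Dut, Rpa2, Pola1, Pola2, Prim1, Pole, Cdc45 and Gins3 were the 11 members not called.

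The 2 experiments differ in sequencing (100 against 50 cycles) and in whether their cells are labelled as controls of a treatment. They also differ in Xist and so in sex make-up. Xist read 50.8 to 231 CPM in libraries of the first, whereas each group of the second held libraries under 2 CPM. An effect of these differences cannot be told apart from that of the experiment. The difference of the Irgm1 effect, first experiment minus second, was tested in 1 fit of all 28 libraries. It was negative and called for 26 of 47 members and positive and called for 0, beside 3.81% and 2.44% of 15114 tested genes; 37 members had an unadjusted p below 0.05, DESeq2 also called 0 positive, and the median difference was -0.59 against -0.03 for all tested genes. All 5 nucleotide supply genes and 9 of 10 licensing genes were among those called, and 46 of 47 members had a value below 0. Leaving out WT replicate 2 gave a median of -0.47.

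The differences were greatest for Ccne2 (log2 -2.69, SE 0.32, adjusted p = 1.0e-05), Rrm2 (-2.22, SE 0.22, adjusted p = 6.7e-07) and Tk1 (-2.17, SE 0.31, adjusted p = 7.2e-05). Ccne2 rose in the second experiment, to 19.9, 17.8, 19.5 and 17.7 CPM in Irgm1KO_control libraries, against 8.95, 10.97, 9.09 and 8.84 CPM in WT_control libraries (log2 0.99, SE 0.17, adjusted p = 0.00017), where it had fallen in the first. Cdc6 likewise fell in the first, to 3.63, 4.70, 4.603 and 4.99 CPM in Irgm1-KO libraries, against 6.78, 7.65, 5.82 and 7.26 CPM in WT libraries. In the second it rose, to 14.4, 14.1, 14.1 and 14.6 CPM in Irgm1KO_control libraries, against 9.16, 9.74, 9.95 and 10.5 CPM in WT_control libraries, and its difference was -1.17 (SE 0.15, adjusted p = 2.1e-05). Ccne1 was not called for a difference (log2 -0.20, SE 0.14, adjusted p = 0.45), nor were Chaf1b (-0.41, SE 0.16, adjusted p = 0.12), Mcm10 (-0.35, SE 0.17, adjusted p = 0.26), Rfc3 (-0.13, SE 0.23, adjusted p = 0.78) and Pold3 (-0.04, SE 0.07, adjusted p = 0.76).

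**Figure D3:**
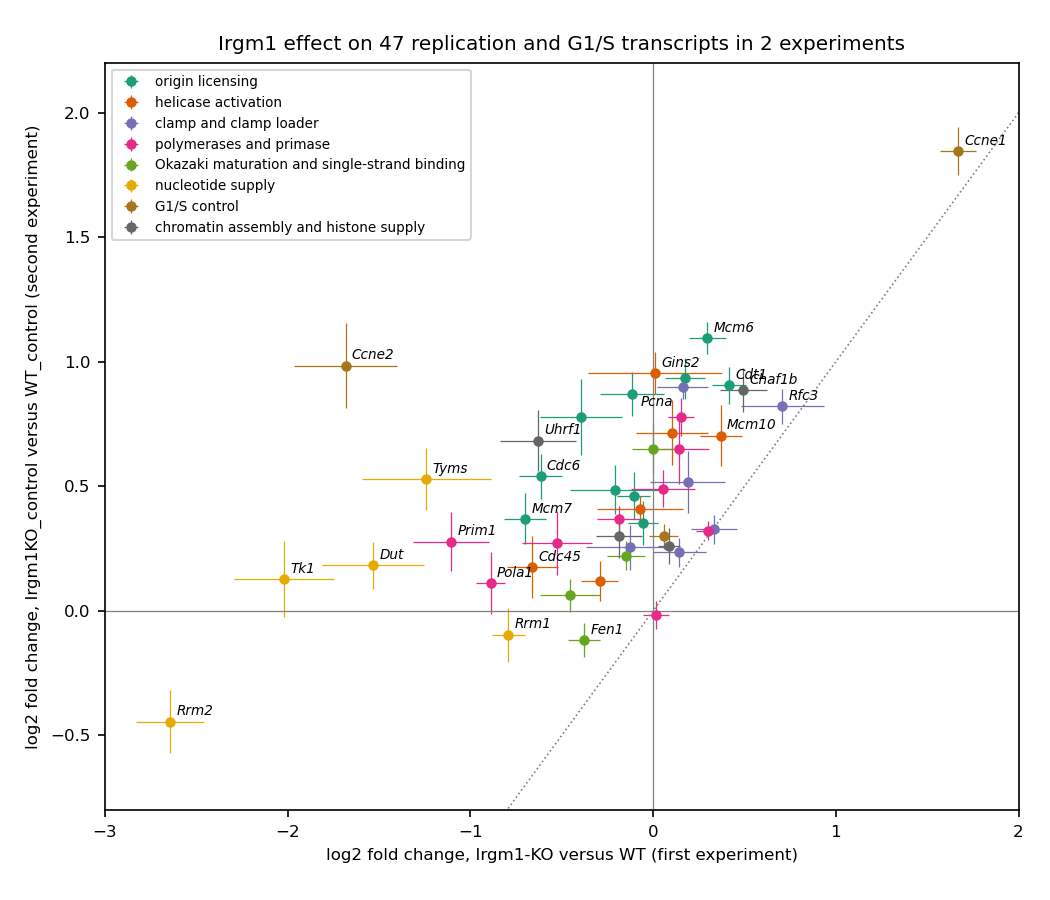
Log2 fold change of each member in Irgm1-KO against WT cells (horizontal) and in Irgm1KO_control against WT_control cells (vertical), with standard errors, coloured by role, and a dotted line of equal values. Nearly all points lie above the line, Ccne1 stands at the upper right in both, and Ccne2 and the nucleotide supply genes lie far to the left.

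Promoters were examined for E2F and CCAAT words, and those shown are of 4 of the 5 licensing genes that hold an E2F word, chosen to show it, and of Rrm2 and Ccne1, the members that fell and rose furthest in Irgm1-KO against WT cells. Promoters of licensing genes without an E2F word are not shown. The sequences are the 250 bases before the annotated start from RefSeq, on build GRCm38.p6, an earlier build than the GRCm39 of the counts. E2F words were TTTCCCGC, TTTCGCGC, TTTGCCGC and TTTGGCGC on either strand, and the CCAAT word was CCAAT on either strand. Promoters were found for 39 of the 47 members, and those of Mcm4, Gins1, Gins2, Gins4, Prim2, Rfc2, Pole and Ccne2 were not used. An E2F word was present in 9 of the 39 (23.1%), against 2.16% of 27025 genes with a promoter in the table, and a CCAAT word in 23 (59.0%), against 37.5%. The 9 were Cdc6, Gins3, Mcm5, Mcm6, Mcm7, Orc1, Pola1, Rfc3 and Uhrf1. The 27025 genes were not limited to those expressed in these cells, whereas every member passed the low-count filter, so the shares are of unlike sets. Below, 5′ to 3′ on the gene's strand, capitals mark these words; in Mcm5 and in Mcm6 a pair of E2F words on opposite strands overlap.
Mcm5, chr8:75109259-75109508, strand +: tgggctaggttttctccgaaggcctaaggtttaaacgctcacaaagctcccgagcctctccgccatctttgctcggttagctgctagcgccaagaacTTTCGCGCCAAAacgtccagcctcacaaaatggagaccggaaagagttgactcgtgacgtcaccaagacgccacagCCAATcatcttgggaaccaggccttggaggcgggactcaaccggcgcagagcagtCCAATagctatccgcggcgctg
Mcm6, chr1:128359706-128359955, strand -: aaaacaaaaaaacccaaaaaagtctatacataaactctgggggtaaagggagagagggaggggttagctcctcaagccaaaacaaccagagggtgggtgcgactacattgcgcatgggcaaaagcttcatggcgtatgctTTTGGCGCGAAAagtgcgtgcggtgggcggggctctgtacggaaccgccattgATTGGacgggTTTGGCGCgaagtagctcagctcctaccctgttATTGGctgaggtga
Orc1, chr4:108579204-108579453, strand +: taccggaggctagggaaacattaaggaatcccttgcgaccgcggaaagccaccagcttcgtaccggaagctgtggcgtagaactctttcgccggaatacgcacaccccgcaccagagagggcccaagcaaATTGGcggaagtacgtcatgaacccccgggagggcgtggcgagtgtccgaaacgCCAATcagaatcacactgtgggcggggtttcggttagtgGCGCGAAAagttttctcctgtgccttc
Cdc6, chr11:98907901-98908150, strand +: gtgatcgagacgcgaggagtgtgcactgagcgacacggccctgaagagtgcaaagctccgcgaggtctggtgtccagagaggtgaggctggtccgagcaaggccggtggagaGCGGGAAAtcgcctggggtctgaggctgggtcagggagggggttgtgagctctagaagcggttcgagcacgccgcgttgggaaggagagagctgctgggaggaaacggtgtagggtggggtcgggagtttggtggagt
Rrm2, chr12:24708004-24708253, strand +: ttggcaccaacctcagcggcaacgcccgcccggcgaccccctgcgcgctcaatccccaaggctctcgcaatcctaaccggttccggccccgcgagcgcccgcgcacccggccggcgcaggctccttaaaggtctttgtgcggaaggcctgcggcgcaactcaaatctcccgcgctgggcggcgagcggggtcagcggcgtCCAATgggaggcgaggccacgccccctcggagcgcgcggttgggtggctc
Ccne1, chr7:38107491-38107740, strand -: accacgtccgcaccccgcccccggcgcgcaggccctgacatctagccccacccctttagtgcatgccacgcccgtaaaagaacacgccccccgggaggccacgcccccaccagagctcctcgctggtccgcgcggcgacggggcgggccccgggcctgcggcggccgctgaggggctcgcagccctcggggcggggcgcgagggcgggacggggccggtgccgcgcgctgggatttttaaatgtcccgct
Mcm5, Mcm6 and Orc1 carry both kinds of word, Cdc6 an E2F word, Rrm2 a CCAAT word, and Ccne1 neither in this window. A match describes the letters and not the binding of a factor, and no match says only that these words are not in these bases. Of the 9 members with an E2F word, Mcm6 and Rfc3 were called higher in Irgm1-KO than in WT cells. Cdc6, Gins3, Mcm7, Pola1 and Uhrf1 were called lower. Among all tested genes 19.8% were higher and 20.7% lower. The Mcm6 call was lost in 6 of 12 fits that each left out 1 library, and the Rfc3 call in 4.

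Fenofibrate was followed by a modest rise of the members in WT cells. In WT_fenofibrate against WT_control cells 22 of 47 were higher and 1, Fen1, was lower, beside 18.1% and 16.9% of all tested genes, with a median log2 fold change of 0.23 (all tested genes 0.02). That fit did not use the pairing of same-numbered control and fenofibrate libraries, which is described below. With libraries scaled by total counts only, 35 were higher and 0 lower, beside 28.4% and 10.2% of all tested genes, and the median of all tested genes shifted to 0.13. Rfc2, a clamp loader subunit, had 65.8, 66.6, 63.1 and 57.3 CPM in WT_fenofibrate libraries, against 48.8, 46.2, 47.6 and 46.0 CPM in WT_control libraries (log2 0.42, SE 0.06, adjusted p = 5.0e-05). Cdt1 had 43.2, 43.9, 35.6 and 39.3 CPM in WT_fenofibrate libraries, against 27.9, 27.1, 27.5 and 30.6 CPM in WT_control libraries (log2 0.52, SE 0.07, adjusted p = 5.9e-05). Every treated library exceeded every control library for both genes. Chaf1b (log2 0.58, SE 0.09, adjusted p = 0.00012) and Ccne1 (0.48, SE 0.09, adjusted p = 0.00091) also rose. Of the 5 nucleotide supply genes 1, Tyms, was called, at 0.44 (SE 0.12, adjusted p = 0.012).

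In Irgm1KO cells the same drug was followed by a rise of 30 of 47 members and a fall of 0, beside 23.5% of all tested genes higher and 22.2% lower, with a median log2 fold change of 0.28 (all tested genes 0.01). The count of 0 lower was 1 with DESeq2, with relative log expression size factors and with a replicate block, and 33 members had an unadjusted p below 0.05. Same-numbered control and fenofibrate libraries of a genotype deviated together, and with that pairing 35 members were higher in Irgm1KO_fenofibrate and 32 in WT_fenofibrate than in their control cells, beside 27.0% and 22.7% of all tested genes in the same fit. All 5 nucleotide supply genes rose (median 0.83). Rrm2 rose to 108, 84.2, 74.9 and 96.0 CPM in Irgm1KO_fenofibrate libraries, against 33.4, 30.2, 32.7 and 31.2 CPM in Irgm1KO_control libraries (log2 1.51, SE 0.13, adjusted p = 2.3e-07). Tk1 rose to 25.2, 21.9, 16.5 and 22.1 CPM in Irgm1KO_fenofibrate libraries, against 10.97, 8.53, 9.92 and 10.98 CPM in Irgm1KO_control libraries (log2 1.09, SE 0.15, adjusted p = 3.0e-05). Dut rose to 11.8, 12.1, 9.20 and 12.9 CPM in Irgm1KO_fenofibrate libraries, against 6.21, 6.11, 6.74 and 6.78 CPM in Irgm1KO_control libraries (log2 0.83, SE 0.09, adjusted p = 2.6e-06). None of these groups overlapped. Pole (0.79, SE 0.13, adjusted p = 0.00011), Cdc45 (0.77, SE 0.12, adjusted p = 8.7e-05) and Prim1 (0.76, SE 0.12, adjusted p = 6.6e-05) followed, on the log2 scale. Ccne1 did not change by the test: it read 28.9, 30.7, 23.0 and 30.1 CPM in Irgm1KO_fenofibrate libraries, inside the range of the Irgm1KO_control libraries apart from 1 lower value (log2 -0.06, SE 0.09, adjusted p = 0.62). Mcm6 was also not called (log2 -0.03, SE 0.06, adjusted p = 0.77).

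**Figure D4:**
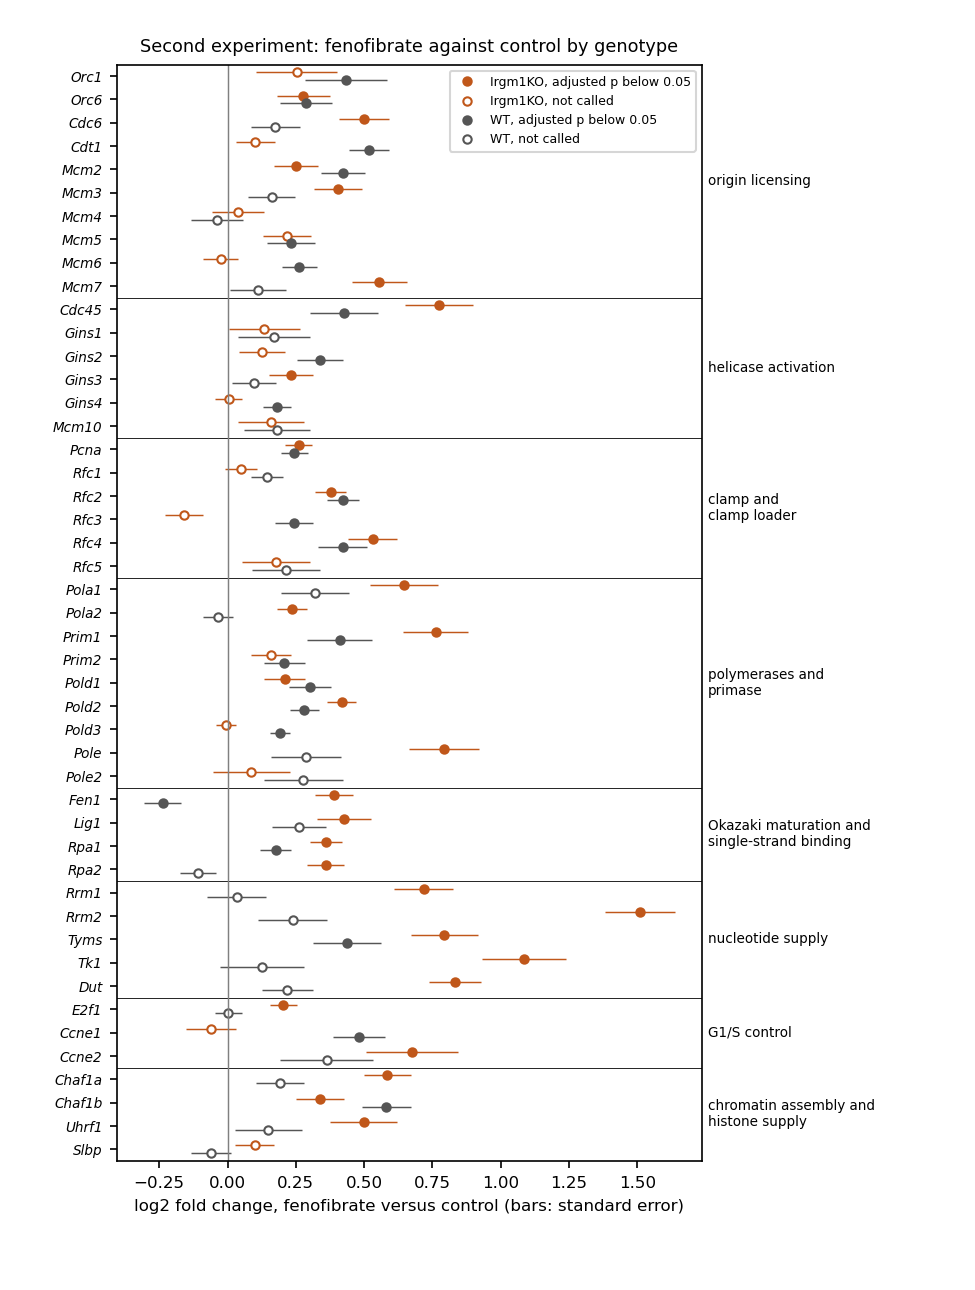
Log2 fold change of each member with fenofibrate against control in Irgm1KO and in WT cells, with standard errors and filled symbols for an adjusted p below 0.05. Rrm2, Tk1, Dut and Rrm1 lie far to the right in Irgm1KO cells, whereas Ccne1, Cdt1 and Rfc3 lie further right in WT cells.

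The fenofibrate effects of the genotypes were compared, in a fit without the pairing of same-numbered libraries, by the interaction, Irgm1KO effect minus WT effect. It was called positive for 11 members and negative for 5, beside 14.9% and 14.7% of all tested genes, with a median of 0.14 (all tested genes 0.00). With total counts only the split was 6 positive and 8 negative, beside 9.38% and 19.2% of all tested genes, while the median of all tested genes moved to -0.10, and single libraries moved the positive count between 7 (without Irgm1KO_control replicate 2) and 16 (without Irgm1KO_fenofibrate replicate 3). The strongest calls were in nucleotide supply and Okazaki processing. Rrm2 had an interaction of 1.27 on the log2 scale (SE 0.18, adjusted p = 0.0001), its WT_fenofibrate libraries reading 58.8, 60.5, 43.4 and 42.3 CPM against 39.7 to 49.8 CPM in WT_control libraries, which overlapped. Fen1 went in opposite directions, to 78.9, 67.5, 61.5 and 73.8 CPM in Irgm1KO_fenofibrate libraries against 55.0, 52.0, 52.7 and 55.2 CPM in Irgm1KO_control libraries, and to 53.8, 50.9, 48.7 and 44.4 CPM in WT_fenofibrate libraries against 56.2, 59.8, 56.6 and 60.6 CPM in WT_control libraries. Its interaction was 0.63 (SE 0.10, adjusted p = 0.00018), and the fall in WT cells (log2 -0.24, SE 0.07, adjusted p = 0.013) had an adjusted p of 0.052 without WT_fenofibrate replicate 4. Rpa2 read 34.1, 34.2, 28.3 and 31.8 CPM in Irgm1KO_fenofibrate libraries against 25.3, 25.6, 23.5 and 25.7 CPM in Irgm1KO_control libraries, with overlapping WT_fenofibrate and WT_control libraries (20.3 to 23.7 against 22.4 to 25.04 CPM), and an interaction of 0.47 (SE 0.10, adjusted p = 0.0016). Dut (0.61, SE 0.13, adjusted p = 0.0026), Rrm1 (0.68, SE 0.15, adjusted p = 0.0031) and Tk1 (0.96, SE 0.22, adjusted p = 0.0035) were also positive. E2f1, Pola2, Chaf1a, Pole and Mcm7 made up the 11, with values of 0.20 to 0.51, and the Mcm7 call was lost in 8 of 16 fits that each left out 1 library (adjusted p of up to 0.073).

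The 5 members with a negative interaction were Ccne1 (log2 -0.54, SE 0.13, adjusted p = 0.0053), Rfc3 (-0.40, SE 0.10, adjusted p = 0.0056), Cdt1 (-0.42, SE 0.10, adjusted p = 0.0061), Pold3 (-0.20, SE 0.05, adjusted p = 0.0097) and Mcm6 (-0.29, SE 0.09, adjusted p = 0.023; 0.053 without WT_fenofibrate replicate 1). In Irgm1KO_control cells, which also enter the interaction, each of the 5 was higher than in WT_control cells. Rfc3 had 25.2, 25.6, 21.4 and 25.3 CPM in Irgm1KO_fenofibrate libraries, against 28.1, 25.8, 25.8 and 29.2 CPM in Irgm1KO_control libraries. In WT_fenofibrate libraries it had 18.8, 19.4, 16.8 and 17.9 CPM, against 15.2, 16.5, 14.03 and 15.8 CPM in WT_control libraries.

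With the drug present in both genotypes, 46 of 47 members were higher in Irgm1KO_fenofibrate than in WT_fenofibrate cells and 0 were lower, beside 18.1% of all tested genes higher and 15.2% lower. The exception was Rfc1, the large clamp loader subunit (log2 0.14, SE 0.06, adjusted p = 0.071), all 47 had an unadjusted p below 0.05, and DESeq2 also called 0 lower. The median log2 fold change was 0.60 (all tested genes 0.01). Ccne1 and Ccne2 led (both log2 1.30, SE 0.09 and 0.17, adjusted p = 1.6e-07 and 6.3e-05), followed by Tk1 (1.09, SE 0.15, adjusted p = 9.9e-05) and Uhrf1, which brings maintenance methylation to new DNA (1.03, SE 0.12, adjusted p = 2.7e-05). This comparison shares libraries with both fenofibrate effects, so it is no separate support for them.

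**Figure D5:**
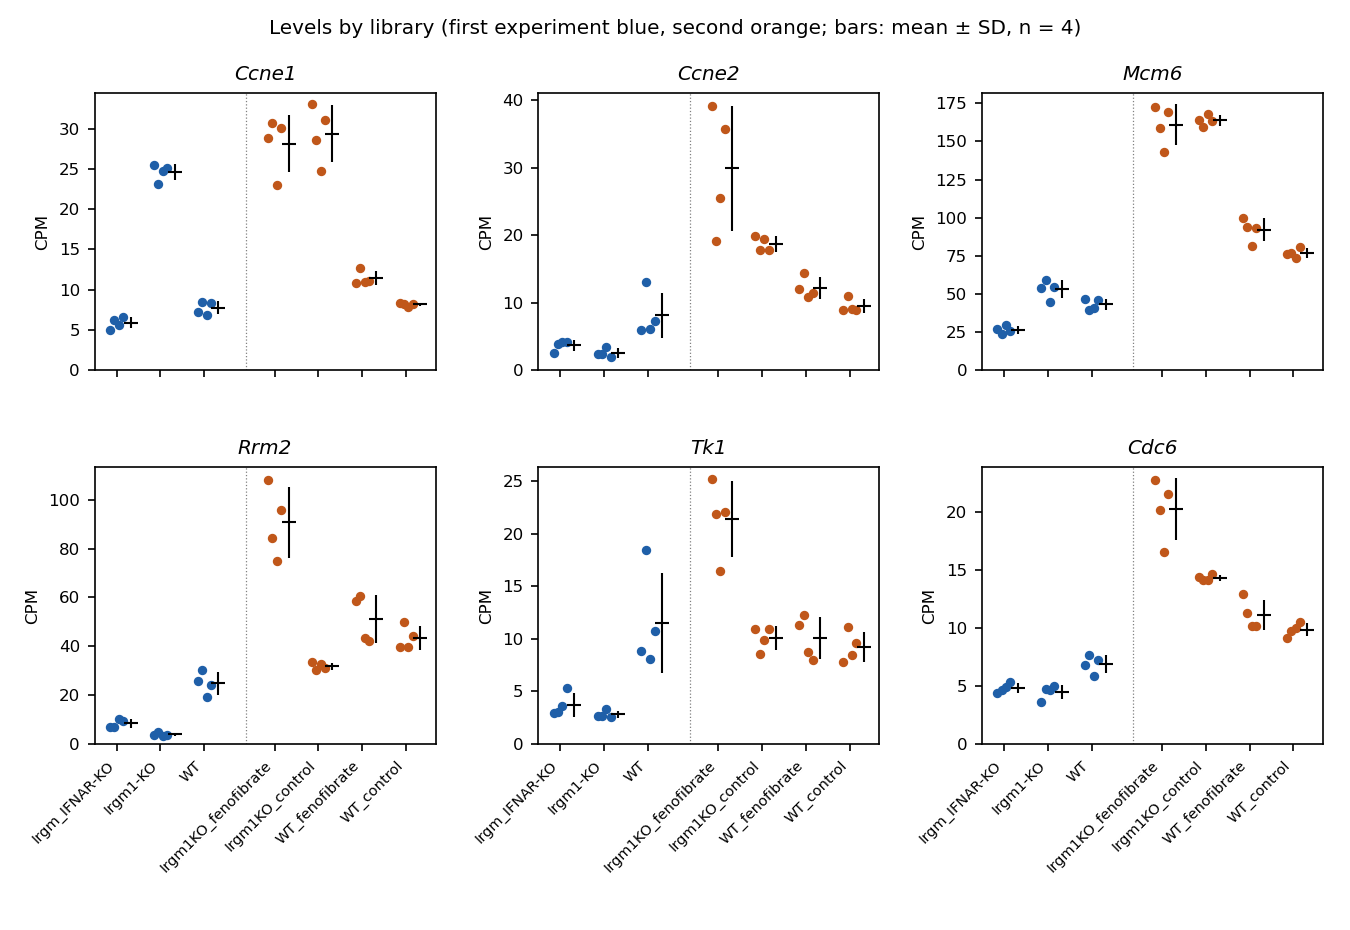
CPM of 6 members in each library by group, with the mean and SD (n = 4) beside the points; the first experiment is left of the dotted line in each panel. Ccne1 is high in the Irgm1-KO, Irgm1KO_fenofibrate and Irgm1KO_control groups, and Rrm2, Tk1 and Cdc6 are highest in Irgm1KO_fenofibrate cells.

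Genes outside the 47 were counted from lists of the same pathway. Among all tested genes, 19.8% were higher and 20.7% lower in Irgm1-KO than in WT cells. In Irgm1KO_control against WT_control cells the shares were 27.3% and 26.1%, and some of the list counts below lie near these shares. Of 16 other licensing genes tested, 3 were higher and 5 lower in Irgm1-KO than in WT cells, and of 19 other replisome genes 3 were higher and 7 lower. In Irgm1KO_control against WT_control cells 9 of the licensing list were higher and 2 lower, and 10 of the replisome list were higher and 4 lower. Among 15 G1 cyclins, kinases and inhibitors, 7 were higher and 3 lower in Irgm1-KO than in WT cells, and 5 higher and 3 lower in Irgm1KO_control than in WT_control cells. Ccnd2, cyclin D2, averaged 9.33 ± 1.76 CPM in Irgm_IFNAR-KO, 68.8 ± 7.7 in Irgm1-KO and 21.8 ± 3.6 in WT cells (SD, n = 4), and its log2 fold change was 1.66 for Irgm1-KO (SE 0.15, adjusted p = 4.7e-06) and -1.22 for Irgm_IFNAR-KO (SE 0.16, adjusted p = 0.00023) against WT. Its family member Ccnd1, cyclin D1, had 0.96 (SE 0.12, adjusted p = 4.4e-05) and -1.19 (SE 0.12, adjusted p = 4.2e-05) in the same comparisons. Of 12 E2F and RB family genes, 2 were higher and 5 lower in Irgm1-KO cells. They included E2f7, a repressor of the E2F programme, which had a log2 value of -2.36 (SE 0.30, adjusted p = 5.5e-05) in Irgm1-KO against WT and 1.23 (SE 0.16, adjusted p = 1.3e-05) in Irgm1KO_fenofibrate against Irgm1KO_control cells.

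Among 12 other genes of nucleotide metabolism, 2 were higher and 2 lower in Irgm1-KO than in WT cells, near the shares of all tested genes (19.8% and 20.7%). All 5 supply members were lower there. Dck, the deoxycytidine salvage kinase, had 0.94 (SE 0.06, adjusted p = 1.6e-07) in Irgm1-KO against WT and -2.37 (SE 0.06, adjusted p = 9.8e-11) in Irgm_IFNAR-KO against Irgm1-KO cells. Timeless, a fork protection factor among the 19 other replisome genes tested, had 1.48 (SE 0.17, adjusted p = 2.0e-05) and -2.81 (SE 0.18, adjusted p = 1.2e-07), while Dna2, a nuclease that processes long flaps, had -1.32 (SE 0.07, adjusted p = 4.8e-08) and 1.50 (SE 0.07, adjusted p = 9.9e-09).

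A list of 20 genes of mitosis was counted in the same comparisons. In Irgm1-KO against WT cells 19 were lower and 1 higher (median log2 -2.09), beside 20.7% and 19.8% of all tested genes. In Irgm_IFNAR-KO against WT cells 19 were lower and 0 higher (median -1.58), beside 8.22% and 3.94%. In Irgm1KO_control against WT_control cells, where 35 members rose, 19 mitosis genes were lower and 1 higher (median -1.04), beside 26.1% and 27.3%. The gene that rose in both was Tpx2, a spindle assembly factor, named after its values were seen. In Irgm1KO_fenofibrate against Irgm1KO_control cells 19 were higher and 1 lower (median 1.16), beside 23.5% and 22.2% of all tested genes. In WT_fenofibrate against WT_control cells 0 were higher and 1 lower (median -0.13), beside 18.1% and 16.9%. The interaction was positive and called for 19 of 20 (median 1.35), beside 14.9%. The median of all tested genes lay between -0.02 and 0.02 in each of these comparisons. Ccna2, cyclin A2, averaged 83.2 ± 17.5 CPM in Irgm1KO_fenofibrate and 30.4 ± 3.0 in Irgm1KO_control cells, against 62.2 ± 13.6 in WT_fenofibrate and 62.6 ± 9.6 in WT_control cells (SD, n = 4 each). Within the 47 members, Rrm2 was likewise highest in Irgm1KO_fenofibrate and lowest in Irgm1KO_control cells, whereas Ccne1 and Mcm6 were high in both Irgm1KO groups.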

How the data were processed

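RNA-seq of 28 libraries in 2 experiments was used. The deposited tables hold whole-number gene counts; fastp, STAR, DESeq2 and GRCm39 are named in the submitters' processing notes, while versions, counting tool and strand use are not given in the sources. Genes of the first table reach at least 10 counts in some library. Counts were tested per experiment with edgeR 4.0.16 (R 4.3.3; TMM scaling, filterByExpr with minimum count 10, quasi-likelihood test, Benjamini-Hochberg adjustment over all tested genes, calls at an adjusted p below 0.05), with all groups of an experiment in 1 fit; the experiments were joined for the difference of the Irgm1 effect. CPM use TMM-scaled library sizes; per-kilobase values divide these by exon length. DESeq2 1.42.0, other scalings, no filter, single libraries left out, an Xist covariate and a replicate block were alternatives. In the second experiment same-numbered control and fenofibrate libraries of a genotype deviated together (r of 0.26 to 0.49), so those numbers were read as pairs; this was checked on the data, and the labels do not state it. Named members were those with the smallest p of each role group or the largest differences. The code was tested on simulated data. The members and all gene lists were chosen with earlier results of these data known. Library totals of 48652844 to 120844616 counts set the counting error. The gene with the most counts, not the same in every library, held 1.39% (Irgm1KO_control replicate 1) to 11.4% (Irgm1-KO replicate 1) of a library.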

Additional observations from a re-analysis of the deposited data

Results flagged for a closer look

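In 7 of 110 groups of 4 libraries that were examined, 1 library lay far from the other 3, and chance gives about 1 in 20 such groups. WT replicate 2 was the high library for Ccne2 (13.1 CPM) and for Fen1 (51.9 CPM), and WT_control replicate 2 for Ccne2 (10.97 CPM). WT_fenofibrate replicate 2 was high for Ccne1 (12.7 CPM), Irgm_IFNAR-KO replicate 3 for Pola1 (15.1 CPM) and Irgm1-KO replicate 3 for Tk1 (3.32 CPM), while Irgm1KO_fenofibrate replicate 3 was low for Pold1 (31.4 CPM).

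The fenofibrate effect differed between Irgm1KO and WT cells by the interaction test for 11 members in the positive and 5 in the negative direction. The shares of all tested genes were 14.9% and 14.7%. The log2 values were 1.27 for Rrm2, 0.63 for Fen1, 0.47 for Rpa2 and 0.61 for Dut. The Irgm1 effect differed between the experiments for 26 members, all lower in the first (0 higher by edgeR's quasi-likelihood test and by DESeq2, with 37 members at an unadjusted p below 0.05). Of all tested genes 3.81% were lower and 2.44% higher by edgeR's test. The log2 differences were -2.69 for Ccne2, -2.22 for Rrm2, -2.17 for Tk1 and -1.17 for Cdc6.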

How the results depend on the processing

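No called member changed direction under the alternatives run, and of the medians only that of Irgm1-KO against WT did. That median was 0.015 without WT replicate 2, and also 0.015 without WT replicate 2, Irgm1-KO replicate 3 and Irgm_IFNAR-KO replicate 4, a choice made after seeing the data. With Xist as a covariate, 14 members were higher in Irgm1-KO than in WT cells (30.5% of all tested genes), 5 were higher in Irgm_IFNAR-KO than in Irgm1-KO cells (33.4%), and the median of Irgm_IFNAR-KO against WT was -0.45. With total counts only, the median of all tested genes moved to 0.13 with fenofibrate in WT cells. There 35 members were higher and 0 lower (all tested genes 28.4% and 10.2%), and the members' median was 0.34. The interaction was then positive for 6 and negative for 8 (all tested genes 9.38% and 19.2%). In Irgm1KO cells 1 member was lower with fenofibrate under relative log expression size factors, DESeq2 and either replicate block, against 0. The fit that gave 0 called 22.2% of all tested genes lower. With only the compared groups fitted, 2 were lower in Irgm1KO_control than in WT_control cells. With all groups of that experiment fitted, 1 was lower, beside 26.1% of all tested genes. The cause of these changes was not tested.

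Leaving out 1 library gave 4 to 8 members higher in Irgm1-KO than in WT cells (median -0.20 to 0.015), a median of -0.67 to -0.45 for Irgm_IFNAR-KO against WT, 1 to 4 members higher in Irgm_IFNAR-KO than in Irgm1-KO cells, and a median difference between experiments of -0.64 to -0.47. It gave 7 to 16 positive interactions and 0 to 1 members lower with fenofibrate in either genotype. With all libraries, 19.8% of all tested genes were higher in Irgm1-KO than in WT cells. For Irgm_IFNAR-KO against Irgm1-KO cells 21.5% were higher, and 14.9% had a positive interaction. With fenofibrate 16.9% were lower in WT and 22.2% in Irgm1KO cells. With the replicate block within genotype, 32 members were higher with fenofibrate in WT cells and 35 in Irgm1KO cells, and 15 interactions were positive and 5 negative (all tested genes 22.7%, 27.0%, 19.3% and 19.1% in this order). In the first experiment same-numbered libraries did not deviate together (r of -0.48 to 0.52). A block over all groups gave 6 members higher and 14 lower in Irgm1-KO than in WT cells. Of 13998 tested genes 2599 were higher and 2639 lower in that fit.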
